A study of Homo sapiens with 12 samples.

Results

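The matrix metalloproteinases (MMPs), the ADAMTS proteinases and the tissue inhibitors of metalloproteinases (TIMPs) were followed in human embryonic stem cells. Members were the genes named MMP or ADAMTS plus a number, and TIMP1 to TIMP4, that had a probe set annotated to that gene alone. They came to 44 of the 19775 genes measured: 22 MMPs, 18 ADAMTS genes and 4 TIMPs. Each was read from its probe set with the highest mean, chosen from 92 probe sets, and 18 members had only 1.

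The cells were H9, a widely used and established human embryonic stem cell line, at passages 28 to 35. All of them, the controls included, carried a Tet-on construct that makes GCNF, the orphan nuclear receptor that NR6A1 encodes, in the presence of doxycycline (Dox). RNA was read on 12 arrays in 4 groups of 3. The day 6 Dox-labelled cells had 1 µg/ml Dox for 6 days, and the day 6 RA-labelled cells had 1 µM retinoic acid (RA) for 6 days, both in a differentiation medium with 15% fetal bovine serum. The cells at d0 with Dox had 1 µg/ml Dox for 4 days, and the cells at d0 without Dox had neither agent, both kept undifferentiated in mTeSR on a matrigel coat. The study asked how GCNF affects expression in undifferentiated cells, with Dox against without it, and in differentiating cells, with Dox against RA. The 2 comparisons of day 6 with d0 also differ in medium and serum. No group had Dox without the construct, and none had day 6 medium without an agent. Replicates are labelled biological, but separate cultures are not stated, so p-values here reflect only how much these arrays vary.

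MMPs are zinc-dependent enzymes, most of them secreted as inactive precursors, that cut collagens and other matrix proteins and release growth factors held in the matrix. ADAMTS enzymes are secreted relatives that cut proteoglycans, trim procollagens or act on single plasma and matrix proteins, and TIMPs block the active site of MMPs and of some ADAMTS and ADAM enzymes. Embryonic stem cells that leave the pluripotent state change their shape, their motility and the matrix around them, and these proteinases and inhibitors act in that remodelling.

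The day 6 labels were checked first. At d0 all 7 probe sets of NR6A1 were higher with Dox, and 6 of them were called. At day 6 the Dox-labelled arrays were called higher for 3 and lower for 3, and the probe set with the largest Dox difference at d0 averaged 29.2 ± 13.7 in Dox-labelled arrays and 336 ± 70.9 in RA-labelled arrays (SD, n = 3 each). CYP26A1, an RA-degrading enzyme that RA itself induces, averaged 29594 ± 1005 in Dox-labelled arrays and 271 ± 37.0 in RA-labelled arrays. These values go against the day 6 labels, so those groups are called by their labels throughout, and every direction between them, and every pairing of them with a d0 group, rests on those labels. Summed signal of 9 pluripotency markers was 39768 to 40932 in Dox-labelled and 31454 to 33508 in RA-labelled day 6 arrays, against 127939 to 132754 at d0 with Dox and 133046 to 146928 at d0 without it. Of 10 listed, 9 were measured. All 9 were called lower in both comparisons of day 6 with d0 (46.1% and 50.5% of all genes called). Between the day 6 groups 3 were higher and 4 lower in Dox-labelled arrays, with a median of −0.21 (25.9% of all genes called). PODXL averaged 20508 ± 128 in Dox-labelled and 11729.6 ± 865 in RA-labelled arrays, and NANOG 36.7 ± 3.28, under 50, and 639.8 ± 46.0. With Dox at d0 1 rose and 3 fell (12.9% of all genes called), NANOG from 11672 ± 556 to 5468 ± 111. The d0 cells thus carried the markers of the labelled cell type. Median signal was 64.19 to 77.98 across arrays, and replicates correlated at 0.9857 to 0.9884.

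All signal is linear probe set intensity as deposited, and a value under 50 is treated here as dim. Differences are log2 fold changes of signal plus 16, with limma's standard error (SE), and a gene is called at an adjusted p under 0.05. Arrays cannot rank different genes, so levels are compared only within a gene. Of the 44 members, 9 averaged under 50 in all 4 groups, and none of these 9 was called in any of the 4 comparisons. They were MMP3, MMP8, MMP12, MMP13, MMP20, MMP21, MMP24, MMP26 and MMP27. Of the 35 others, 30 were called at least once. The uncalled 5 were ADAMTS4, ADAMTS10, ADAMTS17, MMP17 and MMP28. MMP9, TIMP1 and TIMP3 were called in all 4 comparisons. Counts over the 4 comparisons were not made for all genes, so they are not a result about the family.

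Between d0 and day 6 most members were called in each arm, often the same way, and calls were common among all genes too. In Dox-labelled day 6 arrays against d0 with Dox, 18 members rose, 9 fell and 17 were not called. That is 61.4% of members, where 46.1% of all genes were called. In RA-labelled day 6 arrays against d0 without Dox, 17 rose, 11 fell and 16 were not called, 63.6% of members where 50.5% of all genes were called. The share of members higher was 40.9% in the first comparison and 38.6% in the second, where 22.2% and 25.3% of all genes were called higher. The share lower was 20.5% and 25%, where 23.9% and 25.2% of all genes were called lower. Of the 9888 genes at or above the median gene, 3487 were called higher and 3694 lower in the first comparison. In the second, 3952 were called higher and 3856 lower. Calls were thus more common among brighter genes than among all genes. In the Dox-labelled arm 48.2% of all calls were higher (4392 higher, 4728 lower), and 60% were after each array was centred on its median (5407 higher, 3606 lower). The members' median log2 fold change was 0.25 and 0.20, where the median of all genes was −0.03 and −0.01. In both arms, which share no arrays but were tested with a single estimate of spread, 15 members rose and 7 fell. MMP9, MMP16 and ADAMTS13 were called in opposite directions, 5 members were called in 1 arm only (ADAMTS1, ADAMTS3, ADAMTS5, ADAMTS14 and ADAMTS16) and 14 in neither. A 2-fold or larger called change was seen in 15 members that rose and 6 that fell in the Dox-labelled arm, and in 15 and 7 in the RA-labelled arm. Counts alike in both arms and 2-fold counts were not made for all genes, so they are not a result about the family. In bulk RNA, fewer cells of a type and less RNA per cell cannot be told apart.

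**Figure D1:**
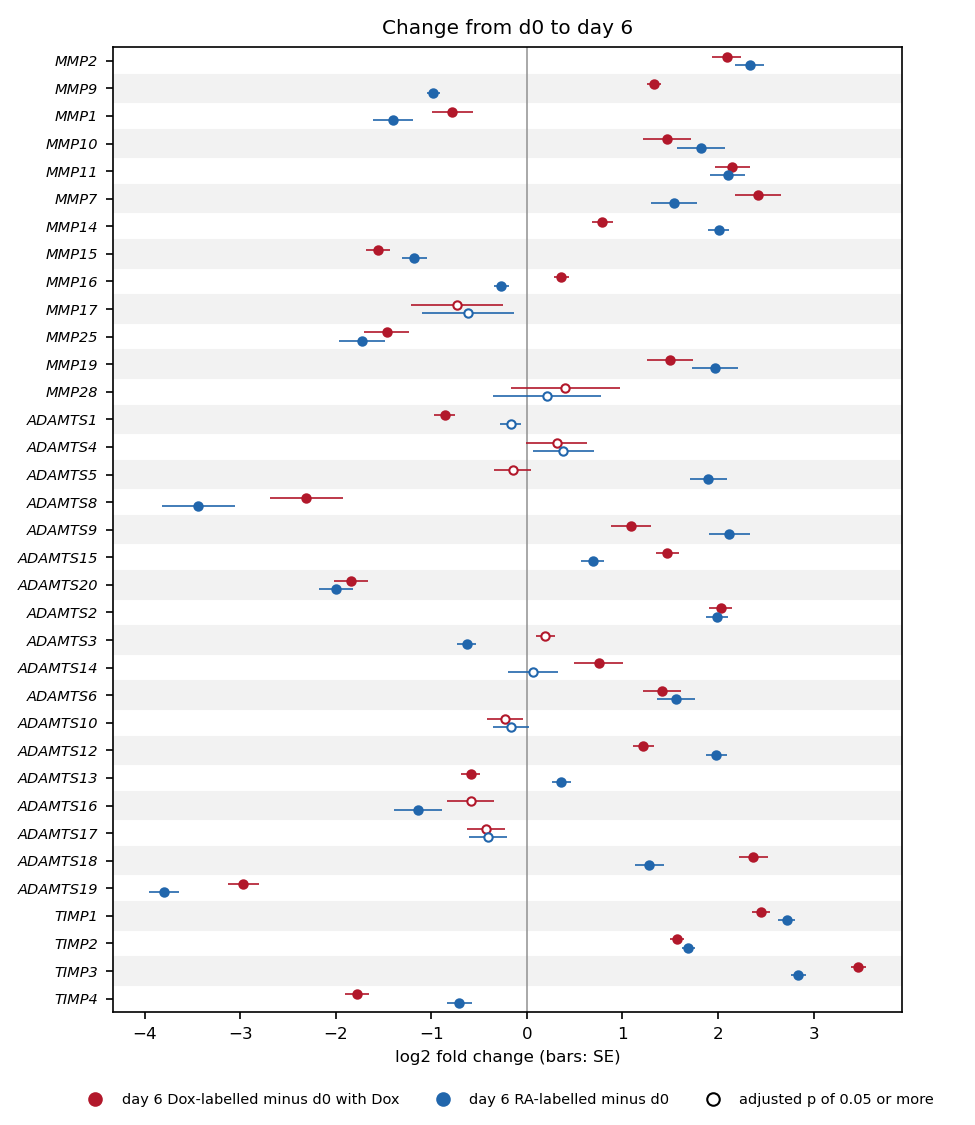
Log2 fold change from d0 to day 6 (horizontal axis) for the 35 members with a group mean of 50 or more, the Dox-labelled arm in red and the RA-labelled arm in blue. Bars are SE, and open points had an adjusted p of 0.05 or more. TIMP1, TIMP2, TIMP3 and MMP2 lie far to the right in both arms and ADAMTS19 and ADAMTS8 far to the left, while MMP9 lies on opposite sides of 0.

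Between the day 6 groups, 10 members rose and 7 fell in Dox-labelled against RA-labelled arrays, and 27 were not called. That is 38.6% of members, where 25.9% of all genes were called, and the members' median difference was 0.12 where that of all genes was 0.00. At d0, 4 members rose and 3 fell with Dox, and 37 were not called. These 15.9% of members lie near the 12.9% called among all genes, so the count at d0 is not a result about the family. Of all genes, 7.75% were called higher and 5.16% lower with Dox at d0, and 13.7% higher and 12.2% lower between the day 6 groups. The median difference at d0 was 0.13 for the members and 0.03 for all genes. A 2-fold or larger called change was seen in 6 members at day 6, of which 5 rose and 1 fell, and at d0 in ADAMTS9, which rose, and ADAMTS8, which fell. Such 2-fold counts were not made for all genes. The difference between the day 6 difference and the d0 difference was itself called in 14 members, 7 each way, or 31.8% where 24.2% of all genes were called (11.7% positive and 12.5% negative).

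**Figure D2:**
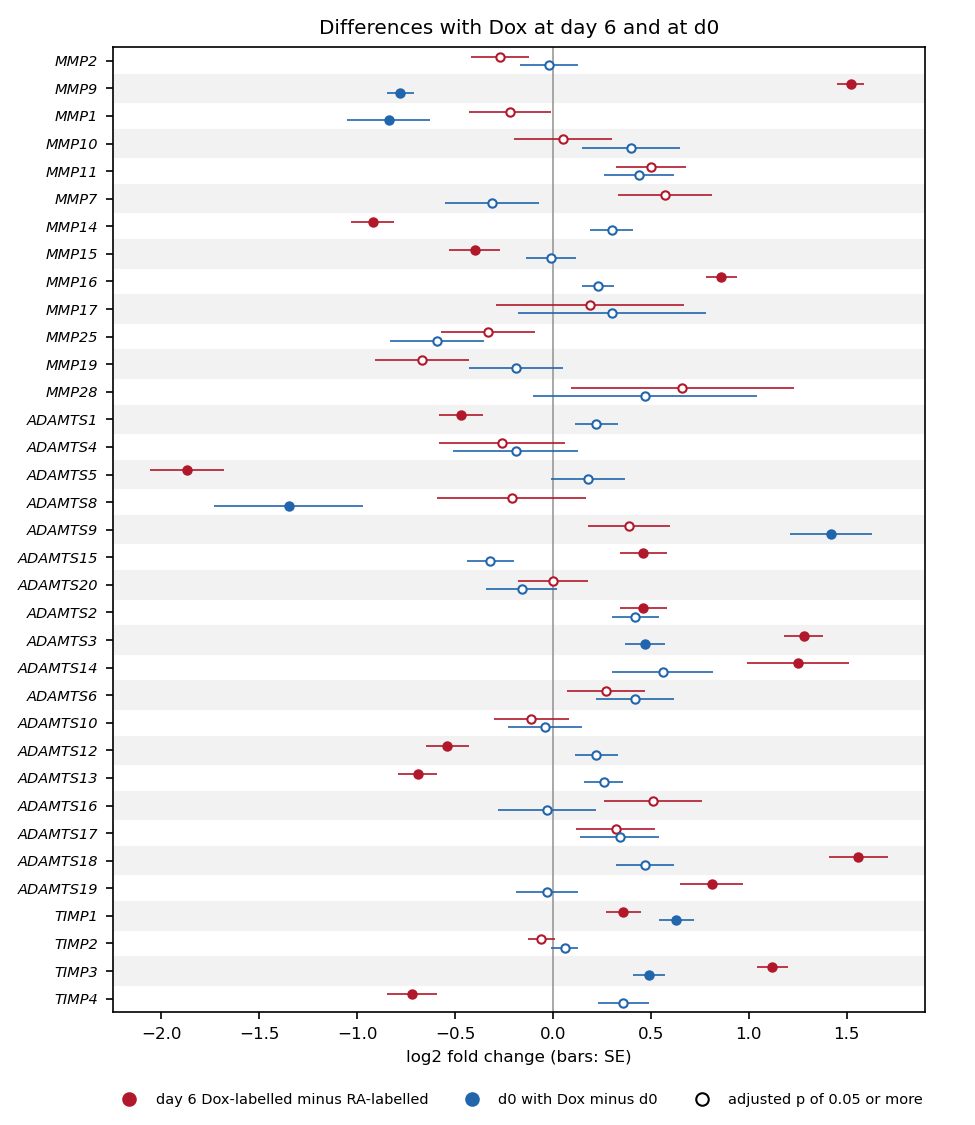
Log2 fold change in Dox-labelled against RA-labelled day 6 arrays (red) and with against without Dox at d0 (blue) for the same 35 members. Bars are SE, and open points had an adjusted p of 0.05 or more. MMP9 lies to the right at day 6 and to the left at d0, and most d0 points are open. An open point does not show that there was no difference.

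Of the 4 inhibitors, TIMP1, TIMP2 and TIMP3 rose from d0 to day 6 in both arms, and TIMP4 fell in both. TIMP3, which binds to the matrix and also blocks ADAM17 and the aggrecan-cutting ADAMTS enzymes, had the largest rise of any member in each arm as labelled. TIMP3 read 8129, 8366 and 8883 in Dox-labelled day 6 arrays, 3809, 4112 and 3723 in RA-labelled day 6 arrays, 762, 775 and 708 at d0 with Dox and 583, 507 and 495 at d0 without it. The 4 groups did not overlap on any array. TIMP3 rose by 3.47 ± 0.08 (SE) in the Dox-labelled arm, 11.1-fold (adjusted p = 1.15e-09), and by 2.84 ± 0.08, 7.17-fold, in the RA-labelled arm (adjusted p = 2.46e-09). It was also higher by 1.12 ± 0.08 in Dox-labelled than RA-labelled arrays (adjusted p = 7.60e-06), with 3 of 3 other probe sets called the same way. At d0 it was 0.49 ± 0.08 higher with Dox (adjusted p = 0.00373), where 1 of the 3 other probe sets was called the same way, and averaged over its probe sets the d0 difference was 0.34 and not called (adjusted p = 0.0603).

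TIMP1, a broad secreted inhibitor that blocks most membrane-type MMPs poorly, followed the same order. TIMP1 read 25837, 26117 and 30082 in Dox-labelled day 6 arrays, 21329.5, 21052 and 21524 in RA-labelled day 6 arrays, 4894, 4912 and 5182 at d0 with Dox and 3084, 2974 and 3657 at d0 without it. Every day 6 array lay above every d0 array, and the Dox-labelled group was the higher of the day 6 groups as the Dox group was at d0. The rise was 2.45 ± 0.09, 5.45-fold, in the Dox-labelled arm (adjusted p = 1.60e-08) and 2.72 ± 0.09, 6.58-fold, in the RA-labelled arm (adjusted p = 5.91e-09). With Dox at d0 TIMP1 rose by 0.63 ± 0.09 (adjusted p = 0.00181). The day 6 difference of 0.36 ± 0.09 (adjusted p = 0.0167) was not called without Dox-labelled day 6 replicate 3 (0.29, adjusted p = 0.0605) or after quantile normalization (0.26, adjusted p = 0.0717).

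TIMP2, which both inhibits MMP14 and serves as the bridge through which MMP14 activates MMP2, was called between the days and not within either day. TIMP2 read 6838, 7479.7 and 7599 in Dox-labelled day 6 arrays, 7574, 8019 and 7203 in RA-labelled day 6 arrays, 2344, 2416 and 2575 at d0 with Dox and 2335, 2444 and 2236 at d0 without it. The day 6 groups overlapped each other, as did the d0 groups, and all day 6 arrays lay above all d0 arrays. The rise was 1.57 ± 0.07 in the Dox-labelled arm (adjusted p = 7.84e-08) and 1.69 ± 0.07 in the RA-labelled arm (adjusted p = 3.22e-08). The log2 fold change was −0.06 ± 0.07 in Dox-labelled against RA-labelled arrays (adjusted p = 0.653) and 0.06 ± 0.07 with Dox at d0 (adjusted p = 0.661). The inhibitor best known from heart, TIMP4 read 133, 119 and 123 in Dox-labelled day 6 arrays, 235, 198 and 216 in RA-labelled day 6 arrays, 445, 459 and 507 at d0 with Dox and 359, 299 and 443 at d0 without it. It was lowest in the Dox-labelled day 6 arrays, next lowest in the RA-labelled ones, and neither overlapped the d0 groups. TIMP4 fell by 1.78 in the Dox-labelled arm (SE 0.13, adjusted p = 1.43e-06) and fell by 0.71 in the RA-labelled arm (SE 0.13, adjusted p = 8.95e-04), and was lower in Dox-labelled than RA-labelled arrays, with a log2 fold change of −0.72 ± 0.13 (adjusted p = 0.00237). At d0 the difference was 0.36 ± 0.13 (adjusted p = 0.102).

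**Figure D3:**
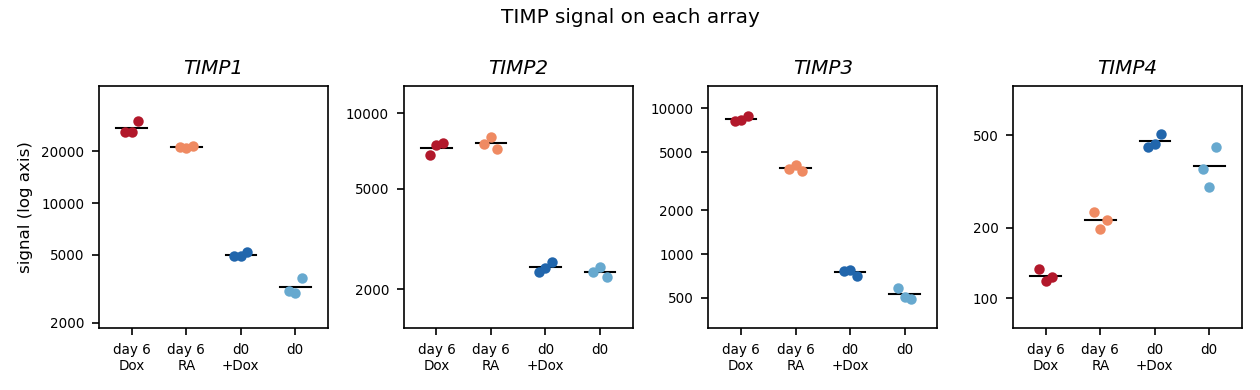
Signal (log axis, array units) of the 4 TIMPs on each of the 12 arrays, by group, with bars at the group means. The day 6 groups stand above the d0 groups for TIMP1, TIMP2 and TIMP3 and below them for TIMP4.

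The gelatinases MMP2 and MMP9, which cut denatured collagen and the type IV collagen of basement membranes, did not move together. For the constitutive gelatinase, MMP2 read 11903, 12583 and 15096 in Dox-labelled day 6 arrays, 16725, 14164 and 16634 in RA-labelled day 6 arrays, 3425, 2438 and 3499.9 at d0 with Dox and 2991, 3272 and 3148 at d0 without it. All day 6 arrays lay above all d0 arrays, and within each day the groups overlapped. MMP2 rose by 2.09 ± 0.15, 4.24-fold, in the Dox-labelled arm (adjusted p = 1.28e-06) and by 2.33 ± 0.15, 5.02-fold, in the RA-labelled arm (adjusted p = 3.81e-07). Its log2 fold change was −0.27 ± 0.15 in Dox-labelled against RA-labelled arrays (adjusted p = 0.232) and −0.02 ± 0.15 with Dox at d0 (adjusted p = 0.944).

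MMP9, the inducible gelatinase, was called in opposite directions in the arms. MMP9 read 2239, 2172 and 2390.3 in Dox-labelled day 6 arrays, 844, 743 and 754 in RA-labelled day 6 arrays, 873, 895 and 912 at d0 with Dox and 1643, 1509 and 1495 at d0 without it. The 4 groups did not overlap: the Dox-labelled day 6 arrays were highest, d0 without Dox next, d0 with Dox below that, and the RA-labelled day 6 arrays lowest. It was 1.52 ± 0.07 higher, 2.87-fold, in Dox-labelled than RA-labelled day 6 arrays (adjusted p = 5.19e-07), and with Dox at d0 it fell by 0.78 (SE 0.07, adjusted p = 1.20e-04). From d0 to day 6 it rose by 1.33 ± 0.07 in the Dox-labelled arm (adjusted p = 2.46e-07) and fell by 0.98 in the RA-labelled arm (SE 0.07, adjusted p = 1.45e-06). The day 6 difference minus the d0 difference was 2.30 ± 0.10 (adjusted p = 6.16e-07). MMP9 had 1 probe set, so no other reading of it was at hand.

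The membrane-type MMPs are held at the cell surface by a transmembrane segment or a lipid anchor. Of 6 measured, MMP14 rose and MMP15 and MMP25 fell in both arms, MMP16 was called in opposite directions, and MMP17 and MMP24 were called in neither. The activator of MMP2, MMP14 read 1817, 1848 and 1841 in Dox-labelled day 6 arrays, 3330.1, 3579 and 3555 in RA-labelled day 6 arrays, 1014, 909.7 and 1274 at d0 with Dox and 864, 805 and 898 at d0 without it. The RA-labelled arrays were highest, the Dox-labelled day 6 arrays next, and both lay above d0. MMP14 rose by 0.79 ± 0.11 in the Dox-labelled arm (adjusted p = 1.74e-04) and by 2.01 ± 0.11, 4.02-fold, in the RA-labelled arm (adjusted p = 1.36e-07), and the log2 fold change of Dox-labelled against RA-labelled arrays was −0.92 ± 0.11 (adjusted p = 1.90e-04). At d0 all Dox arrays lay above all arrays without it, by 0.30 ± 0.11, which was not called (adjusted p = 0.112). The day 6 difference minus the d0 difference was −1.22 ± 0.16 (adjusted p = 3.86e-04).

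MMP16, another surface activator of MMP2, ran the other way between the day 6 groups. MMP16 read 1828, 1746 and 2121 in Dox-labelled day 6 arrays, 991, 1065 and 1041 in RA-labelled day 6 arrays, 1506, 1433 and 1464 at d0 with Dox and 1244, 1173 and 1325 at d0 without it. The Dox-labelled day 6 arrays lay above all others and the RA-labelled arrays below all others. The difference between them was 0.86 ± 0.08 (adjusted p = 5.10e-05). MMP16 rose by 0.36 ± 0.08 in the Dox-labelled arm (adjusted p = 0.00494). In the RA-labelled arm its log2 fold change of −0.27 ± 0.08 (adjusted p = 0.0224) was not called without d0 replicate 1, d0 replicate 3 or RA-labelled replicate 1 (adjusted p 0.0534 to 0.0762), or after median centring (−0.18, adjusted p = 0.13).

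MMP15 read 137, 138 and 171 in Dox-labelled day 6 arrays, 235, 181 and 188 in RA-labelled day 6 arrays, 475, 448 and 484 at d0 with Dox and 537, 418 and 471 at d0 without it. Its day 6 groups lay below both d0 groups, the Dox-labelled arrays lowest. MMP15 fell by 1.56 in the Dox-labelled arm (adjusted p = 3.33e-06) and fell by 1.18 in the RA-labelled arm (adjusted p = 1.97e-05). The log2 fold change between the day 6 groups, −0.40 ± 0.13 (adjusted p = 0.043), was not called without any 1 of 8 arrays (adjusted p 0.0569 to 0.139), namely d0 replicate 3, each d0 with Dox, RA-labelled replicates 1 and 3, and Dox-labelled day 6 replicates 1 and 2. Averaged with its dim second probe set it was −0.04 (adjusted p = 0.932), and the fall in the RA-labelled arm was then −0.42 (adjusted p = 0.143). Lipid-anchored MMP25 read 62.6, 31.7 and 52.8 in Dox-labelled day 6 arrays, 72.5, 62.1 and 58.7 in RA-labelled day 6 arrays, 131, 140.1 and 221 at d0 with Dox and 307, 267 and 189 at d0 without it. All day 6 arrays lay below all d0 arrays, and within each day the groups overlapped. MMP25 fell by 1.47 in the Dox-labelled arm (SE 0.24, adjusted p = 5.61e-04) and fell by 1.73 in the RA-labelled arm (SE 0.24, adjusted p = 1.45e-04).

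**Figure D4:**
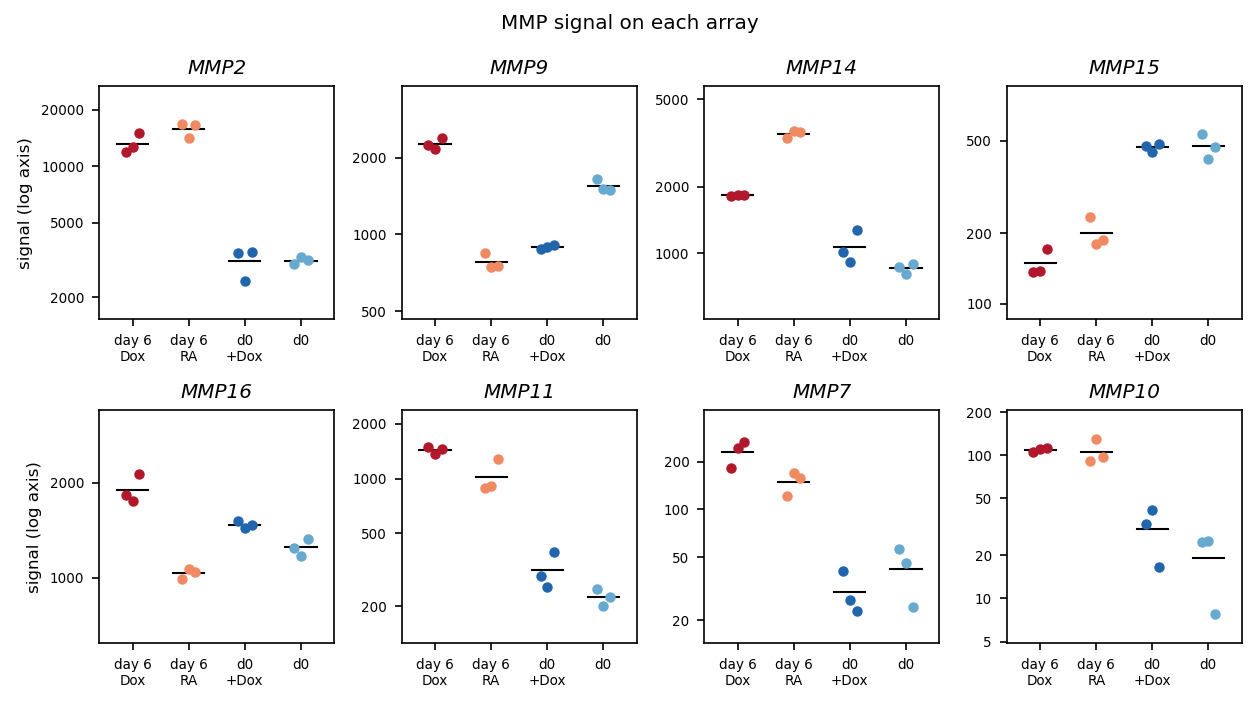
Signal (log axis, array units) of 8 MMPs on each array, by group, with bars at the group means. MMP2 and MMP14 stand higher at day 6 than at d0, MMP15 lower, and MMP9 is highest in Dox-labelled and lowest in RA-labelled day 6 arrays.

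Of the secreted MMPs, 9 lie next to each other among the protein-coding genes of chromosome 11, in the order MMP7, MMP20, MMP27, MMP8, MMP10, MMP1, MMP3, MMP12 and MMP13. At day 6 MMP7 and MMP10 rose and MMP1 fell in both arms, and the other 6 were dim in all groups and not called. Of the 44 members, 25 matched a RefSeq upstream window (250 bases before the gene's start, GRCh38.p14). These windows were searched on both strands for TGANTCA, a loose form of the AP-1 motif in which N is any base, and for the TATA box TATAAA. The AP-1 motif is known as a control element of several MMP genes. They were also searched for the nuclear receptor half-site AGGTCA and for TCAAGGTCA, the extended half-site that GCNF is known to bind and that contains AGGTCA. AP-1 matches stood in 4 of the 25 windows (16%), where 6.6% of 27305 promoter windows held one. These 4 windows are shown because they hold a match. Of their genes, MMP7, MMP10 and ADAMTS12 rose in both arms while MMP20 stayed dim. The other members that rose in both arms had no AP-1 match or no window. Capitals mark AP-1 and TATA box matches, and all 4 are read on the minus strand. The window of MMP7 is chr11:102530748-102530997, that of MMP10 chr11:102780629-102780878, that of ADAMTS12 chr5:33891991-33892240 and that of MMP20 chr11:102625333-102625582.
MMP7: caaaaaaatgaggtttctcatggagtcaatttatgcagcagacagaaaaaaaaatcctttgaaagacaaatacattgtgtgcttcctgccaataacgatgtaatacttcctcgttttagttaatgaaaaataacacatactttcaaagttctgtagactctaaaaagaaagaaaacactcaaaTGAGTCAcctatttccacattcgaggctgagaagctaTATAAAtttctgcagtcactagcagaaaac
MMP10: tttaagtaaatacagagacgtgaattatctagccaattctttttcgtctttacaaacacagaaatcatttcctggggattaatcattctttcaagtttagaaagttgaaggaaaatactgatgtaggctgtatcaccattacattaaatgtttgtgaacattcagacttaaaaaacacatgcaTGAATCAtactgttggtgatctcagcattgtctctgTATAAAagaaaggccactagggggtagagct
ADAMTS12: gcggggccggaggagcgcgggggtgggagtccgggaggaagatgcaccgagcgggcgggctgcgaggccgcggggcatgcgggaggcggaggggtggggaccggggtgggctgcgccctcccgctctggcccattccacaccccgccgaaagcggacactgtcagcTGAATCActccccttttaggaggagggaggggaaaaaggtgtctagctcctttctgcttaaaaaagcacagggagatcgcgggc
MMP20: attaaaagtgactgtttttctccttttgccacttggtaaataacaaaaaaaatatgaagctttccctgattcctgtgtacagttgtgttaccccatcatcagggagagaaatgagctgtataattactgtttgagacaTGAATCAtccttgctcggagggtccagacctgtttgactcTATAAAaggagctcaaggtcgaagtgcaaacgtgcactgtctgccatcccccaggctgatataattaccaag
The AP-1 match is TGAGTCA in MMP7 and TGAATCA in MMP10, ADAMTS12 and MMP20. It begins 67 bases before the start in both MMP7 and MMP10, 84 before it in ADAMTS12 and 112 before it in MMP20. A TATA box match begins 30, 31 and 72 bases before the start in MMP7, MMP10 and MMP20. TATA box matches stood in 7 of 25 members' windows (28%), where 11.1% of all windows held one. AGGTCA stood in 2 (8%), those of MMP15 and TIMP4, where 12.1% of all windows held it. TCAAGGTCA stood in 0 of 25 where 0.319% of all held it. These are letter matches in a window and do not show that a factor binds there.

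MMP7, a small matrilysin without the hemopexin domain of most MMPs, rose in both arms. MMP7 read 183, 243 and 266 in Dox-labelled day 6 arrays, 121, 171 and 158 in RA-labelled day 6 arrays, 41.1, 26.9 and 22.8 at d0 with Dox and 56.5, 46.1 and 24.3 at d0 without it. All day 6 arrays lay above all d0 arrays, most of which were dim. MMP7 rose by 2.42 ± 0.24, 5.34-fold, in the Dox-labelled arm (adjusted p = 1.43e-05) and by 1.54 ± 0.24, 2.91-fold, in the RA-labelled arm (adjusted p = 3.01e-04). The Dox-labelled arrays also lay above the RA-labelled ones, by 0.57 ± 0.24, which was not called (adjusted p = 0.115). The stromelysin MMP10 read 106, 111 and 112 in Dox-labelled day 6 arrays, 91.8, 129.8 and 96.7 in RA-labelled day 6 arrays, 33.2, 41.6 and 16.5 at d0 with Dox and 24.7, 25.2 and 7.77 at d0 without it. Here too no day 6 array overlapped a d0 array, while the day 6 groups overlapped each other. It rose by 1.47 ± 0.25 in the Dox-labelled arm (adjusted p = 7.09e-04) and by 1.82 ± 0.25 in the RA-labelled arm (adjusted p = 1.29e-04), and since d0 arrays were dim, both sizes depend on the 16 added before the log.

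MMP1, the interstitial collagenase, went down instead. MMP1 read 16.8, 28.5 and 26.7 in Dox-labelled day 6 arrays, 24.5, 43.5 and 24.9 in RA-labelled day 6 arrays, 69.9, 53.3 and 37.3 at d0 with Dox and 94.7, 112 and 112 at d0 without it. The 3 arrays at d0 without Dox were the highest, the d0 arrays with Dox overlapped the RA-labelled arrays, and both day 6 groups lay below 50 on every array. MMP1 fell by 0.78 in the Dox-labelled arm (adjusted p = 0.00992) and fell by 1.40 in the RA-labelled arm (adjusted p = 2.03e-04). With Dox at d0 it fell by 0.84 (adjusted p = 0.0247). The fall with Dox was not called without d0 replicate 2 or 3, or d0 with Dox replicate 2 or 3 (adjusted p 0.0634 to 0.0828), with a pseudocount of 1 (adjusted p = 0.0567) or on its 6 arrays alone (adjusted p = 0.0559).

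MMP11, a stromelysin-like enzyme that is activated inside the cell by furin, was among the largest rises in both arms. MMP11 read 1483, 1362 and 1446 in Dox-labelled day 6 arrays, 885, 907 and 1274 in RA-labelled day 6 arrays, 291, 255 and 397 at d0 with Dox and 248, 200.2 and 225 at d0 without it. No day 6 array overlapped a d0 array. MMP11 rose by 2.15 ± 0.18, 4.45-fold, in the Dox-labelled arm (adjusted p = 3.56e-06) and by 2.10 ± 0.18, 4.27-fold, in the RA-labelled arm (adjusted p = 3.04e-06), with 1 of 3 other probe sets called the same way in each. The Dox-labelled arrays lay above the RA-labelled ones by 0.50 ± 0.18, which was not called (adjusted p = 0.0641). MMP19, an MMP found in many normal tissues, averaged 233 ± 12.1 in Dox-labelled and 378 ± 4.49 in RA-labelled day 6 arrays, against 73.5 ± 20.5 at d0 with Dox and 89.2 ± 36.2 without it (SD, n = 3 each). It rose by 1.50 ± 0.24 in the Dox-labelled arm (adjusted p = 4.57e-04) and by 1.97 ± 0.24 in the RA-labelled arm (adjusted p = 5.12e-05). MMP28, the last of the MMPs above 50 in any group, read from 8.32 to 110.5 on single arrays and was not called. Of its 4 other probe sets, 2 were called higher in the Dox-labelled arm (1.56, adjusted p = 0.00126 over all probe sets, and 1.20, adjusted p = 0.00344), with means of 70.8 and 38.5 in Dox-labelled day 6 arrays and 14.8 and 7.15 at d0 with Dox. The first of them was also called higher in the RA-labelled arm (1.06, adjusted p = 0.0111) and the second between the day 6 groups (0.86, adjusted p = 0.0414).

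ADAMTS2, ADAMTS3 and ADAMTS14 remove the amino-terminal propeptide of fibrillar procollagens. All 3 were called higher in Dox-labelled than RA-labelled day 6 arrays, where 13.7% of all genes were. These 3 were grouped with earlier results known, so the count is not a result about procollagen cleavage. The enzyme also known to activate VEGF-C, ADAMTS3 read 979.7, 941 and 985 in Dox-labelled day 6 arrays, 336, 452 and 385 in RA-labelled day 6 arrays, 895, 803 and 850.4 at d0 with Dox and 576, 645 and 607 at d0 without it. The RA-labelled arrays lay below every other array, and the Dox arrays lay above those without Dox at d0. ADAMTS3 was higher by 1.28 ± 0.10, 2.44-fold, at day 6 (adjusted p = 1.22e-05) and by 0.47 ± 0.10 with Dox at d0 (adjusted p = 0.0139). The d0 rise was 0.43 and not called without d0 replicate 1 (adjusted p = 0.0541) or without d0 with Dox replicate 1 (adjusted p = 0.0544). From d0 to day 6 it fell by 0.63 in the RA-labelled arm (adjusted p = 4.06e-04) and differed by 0.19 ± 0.10 in the Dox-labelled arm (adjusted p = 0.171).

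ADAMTS14 read 123, 71.3 and 104 in Dox-labelled day 6 arrays, 40.0, 40.4 and 18.2 in RA-labelled day 6 arrays, 69.9, 46.8 and 41.0 at d0 with Dox and 41.8, 23.8 and 25.6 at d0 without it. The Dox-labelled day 6 arrays lay above all others, and the other 3 groups averaged 52.6 or less. The arrays at d0 without Dox overlapped the RA-labelled arrays and those at d0 with Dox, which did not overlap each other. ADAMTS14 was higher by 1.25 ± 0.26 in Dox-labelled than RA-labelled arrays (adjusted p = 0.00543). Its rise of 0.75 ± 0.26 in the Dox-labelled arm (adjusted p = 0.0372) was not called without d0 with Dox replicate 2 or 3 or Dox-labelled day 6 replicate 1 or 3 (adjusted p 0.0958 to 0.126), or with a pseudocount of 1 (adjusted p = 0.0721). ADAMTS2 read 601, 657 and 640.4 in Dox-labelled day 6 arrays, 495, 442 and 430.3 in RA-labelled day 6 arrays, 123, 149.9 and 157 at d0 with Dox and 84.3, 109 and 118 at d0 without it. Every day 6 array lay above every d0 array, and within each day the Dox group was the higher. ADAMTS2 rose by 2.03 ± 0.12 in the Dox-labelled arm (adjusted p = 4.08e-07) and by 1.99 ± 0.12 in the RA-labelled arm (adjusted p = 3.07e-07). The day 6 difference of 0.46 ± 0.12 (adjusted p = 0.0191) was not called without RA-labelled replicate 2 or 3 or Dox-labelled day 6 replicate 2 or 3 (adjusted p 0.0528 to 0.0645), or averaged over its probe sets (0.74, adjusted p = 0.0662). At d0 its difference was 0.42 (adjusted p = 0.051), and 1 of 2 other probe sets was called the opposite way there.

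ADAMTS1, ADAMTS4, ADAMTS5, ADAMTS8, ADAMTS9, ADAMTS15 and ADAMTS20 cut hyalectans, the large hyaluronan-binding proteoglycans such as versican and aggrecan. From d0 to day 6 ADAMTS9 and ADAMTS15 rose and ADAMTS8 and ADAMTS20 fell in both arms, while ADAMTS5 rose in the RA-labelled arm and ADAMTS1 fell in the Dox-labelled arm, each without a call in the other arm. The aggrecanase ADAMTS5 read 363, 355 and 369.9 in Dox-labelled day 6 arrays, 1341, 1132 and 1689 in RA-labelled day 6 arrays, 531, 396 and 315 at d0 with Dox and 344, 319 and 412 at d0 without it. The RA-labelled arrays lay above all others, and the other 3 groups overlapped. ADAMTS5 rose by 1.90 ± 0.19, 3.72-fold, in the RA-labelled arm (adjusted p = 1.24e-05) and differed by −0.15 ± 0.19 in the Dox-labelled arm (adjusted p = 0.569). Its log2 fold change in Dox-labelled against RA-labelled arrays was −1.87 ± 0.19 (adjusted p = 6.93e-05), and 3 of 3 other probe sets were called the same way. The day 6 difference minus the d0 difference was −2.05 ± 0.27 (adjusted p = 4.75e-04). ADAMTS1 and ADAMTS5 are neighbours on chromosome 21.

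ADAMTS1 read 1003, 930.5 and 797 in Dox-labelled day 6 arrays, 1399, 1313 and 1092 in RA-labelled day 6 arrays, 1620.2, 1665 and 1698 at d0 with Dox and 1342, 1509 and 1424 at d0 without it. The Dox-labelled day 6 arrays were lowest and did not overlap the RA-labelled ones. ADAMTS1 fell by 0.86 in the Dox-labelled arm (adjusted p = 9.15e-05), and the log2 fold change between the day 6 groups was −0.47 ± 0.11 (adjusted p = 0.0104), not called on those 6 arrays alone (adjusted p = 0.0586). Subtracting the d0 difference from the day 6 one gave −0.69 ± 0.16 (adjusted p = 0.0094). ADAMTS9 read 732, 732 and 509.8 in Dox-labelled day 6 arrays, 559, 426 and 499.5 in RA-labelled day 6 arrays, 298, 268 and 329.6 at d0 with Dox and 130.0, 69.3 and 112 at d0 without it. The d0 arrays without Dox lay below the d0 arrays with Dox, and both lay below all day 6 arrays, which overlapped each other. ADAMTS9 rose by 1.09 ± 0.21 in the Dox-labelled arm (adjusted p = 0.00168) and by 2.12 ± 0.21 in the RA-labelled arm (adjusted p = 1.13e-05). With Dox at d0 it rose by 1.42 ± 0.21, 2.68-fold (adjusted p = 0.00196), the largest rise among members there. Its 3 other probe sets were dim at d0 and none was called, and averaged over all 4 the difference was 0.36 (adjusted p = 0.0847).

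ADAMTS8 and ADAMTS15 are neighbours on chromosome 11 and went opposite ways from d0 to day 6. ADAMTS8 read 53.8, 6.23 and 11.5 in Dox-labelled day 6 arrays, 29.3, 31.5 and 14.8 in RA-labelled day 6 arrays, 139, 165 and 167 at d0 with Dox and 419, 327 and 552 at d0 without it. Every day 6 array lay below every d0 array, and 1 Dox-labelled array stood above 50. ADAMTS8 fell by 2.31 in the Dox-labelled arm (SE 0.38, adjusted p = 5.62e-04) and fell by 3.44 in the RA-labelled arm (SE 0.38, adjusted p = 2.48e-05). With Dox at d0 it fell by 1.35 (SE 0.38, adjusted p = 0.0446). That fall was not called without any 1 of 10 of the 12 arrays (adjusted p 0.051 to 0.125), the exceptions being Dox-labelled day 6 replicates 1 and 2, nor with a pseudocount of 1 (adjusted p = 0.2). ADAMTS15 read 455, 418 and 396 in Dox-labelled day 6 arrays, 279.9, 285 and 349 in RA-labelled day 6 arrays, 138, 133 and 156 at d0 with Dox and 175, 163 and 210.4 at d0 without it. No 2 groups overlapped. It rose by 1.47 ± 0.12 in the Dox-labelled arm (adjusted p = 2.91e-06) and by 0.69 ± 0.12 in the RA-labelled arm (adjusted p = 5.51e-04). The day 6 difference of 0.46 (adjusted p = 0.0161) was not called without RA-labelled replicate 1 or 2 or Dox-labelled day 6 replicate 1 (adjusted p 0.0574 to 0.063), or averaged over its probe sets (0.12, adjusted p = 0.577). ADAMTS20 read 27.4, 36.9 and 20.7 in Dox-labelled day 6 arrays, 21.0, 37.2 and 26.8 in RA-labelled day 6 arrays, 116, 155 and 157 at d0 with Dox and 147, 179 and 154 at d0 without it. All day 6 arrays were dim and no d0 array was, with overlap within each day. ADAMTS20 fell by 1.84 in the Dox-labelled arm (adjusted p = 1.12e-05) and also fell in the RA-labelled arm (adjusted p = 4.37e-06).

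Of the 8 remaining ADAMTS genes, ADAMTS6, ADAMTS12 and ADAMTS18 rose and ADAMTS19 fell in both arms. ADAMTS19 read 180.2, 188 and 193 in Dox-labelled day 6 arrays, 117, 121 and 70.2 in RA-labelled day 6 arrays, 1536, 1649 and 1541 at d0 with Dox and 1569, 1457 and 1804 at d0 without it. The day 6 groups lay far below both d0 groups and did not overlap each other. ADAMTS19 fell by 2.97 in the Dox-labelled arm (SE 0.16, adjusted p = 1.94e-07) and fell by 3.80 in the RA-labelled arm (SE 0.16, adjusted p = 2.39e-08), 7.84-fold and 13.9-fold lower signal. These were the largest falls of any member in each arm as labelled, and its other probe set was called lower in both. It was 0.81 ± 0.16 higher in Dox-labelled than RA-labelled arrays (adjusted p = 0.00444). ADAMTS18 read 600.1, 604 and 601 in Dox-labelled day 6 arrays, 248, 175 and 167 in RA-labelled day 6 arrays, 95.5, 115 and 99.8 at d0 with Dox and 80.4, 77.3 and 55.3 at d0 without it. The Dox-labelled day 6 arrays were highest and the RA-labelled arrays next. ADAMTS18 rose by 2.37 ± 0.15 in the Dox-labelled arm (adjusted p = 7.10e-07) and by 1.28 ± 0.15 in the RA-labelled arm (adjusted p = 4.83e-05), and the difference between the day 6 groups was 1.56 ± 0.15 (adjusted p = 5.73e-05). Its other probe set averaged 62.6 in Dox-labelled and 59.4 in RA-labelled day 6 arrays, against 65.6 at d0 with Dox and 66.2 without it, and was not called.

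An ADAMTS enzyme that cuts cartilage oligomeric matrix protein, ADAMTS12 read 2378, 2144 and 2737 in Dox-labelled day 6 arrays, 3361, 3592 and 3546 in RA-labelled day 6 arrays, 935, 988 and 1154 at d0 with Dox and 877, 809 and 941 at d0 without it. The RA-labelled arrays were highest, the Dox-labelled day 6 arrays next, and no array of either overlapped d0. ADAMTS12 rose by 1.22 ± 0.11 in the Dox-labelled arm (adjusted p = 7.15e-06) and by 1.98 ± 0.11 in the RA-labelled arm (adjusted p = 1.47e-07). The log2 fold change between the day 6 groups was −0.54 ± 0.11 (adjusted p = 0.00517), and averaged over its probe sets it was −0.45 and not called (adjusted p = 0.0964). The enzyme that cuts von Willebrand factor, ADAMTS13 read 138, 135 and 156 in Dox-labelled day 6 arrays, 219, 245 and 255 in RA-labelled day 6 arrays, 239, 196 and 237 at d0 with Dox and 168, 193 and 189 at d0 without it. The Dox-labelled day 6 arrays lay below every other array. ADAMTS13 fell by 0.59 in the Dox-labelled arm (adjusted p = 7.11e-04) and rose by 0.36 ± 0.10 in the RA-labelled arm (adjusted p = 0.0131), a rise that was not called without d0 replicate 1 (0.30, adjusted p = 0.0529). Between the day 6 groups its log2 fold change was −0.69 ± 0.10 (adjusted p = 7.36e-04). Averaged over its probe sets neither that difference (−0.34, adjusted p = 0.139) nor the fall in the Dox-labelled arm (−0.02, adjusted p = 0.922) was called.

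ADAMTS6 averaged 217 ± 38.0 in Dox-labelled and 176 ± 13.8 in RA-labelled day 6 arrays, against 72.3 ± 18.3 at d0 with Dox and 50.4 ± 17.6 without it. It rose by 1.41 ± 0.20 in the Dox-labelled arm (adjusted p = 2.23e-04) and by 1.56 ± 0.20 in the RA-labelled arm (adjusted p = 8.47e-05). ADAMTS16 averaged 66.4 ± 7.63 and 45.2 ± 25.8 in Dox-labelled and RA-labelled day 6 arrays, against 108 ± 8.08 and 112 ± 22.5 at d0 with and without Dox. It fell by 1.14 in the RA-labelled arm (adjusted p = 0.00353), and its log2 fold change in the Dox-labelled arm was −0.59 ± 0.25 (adjusted p = 0.0858). ADAMTS4, ADAMTS10 and ADAMTS17 were called in no comparison.

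**Figure D5:**
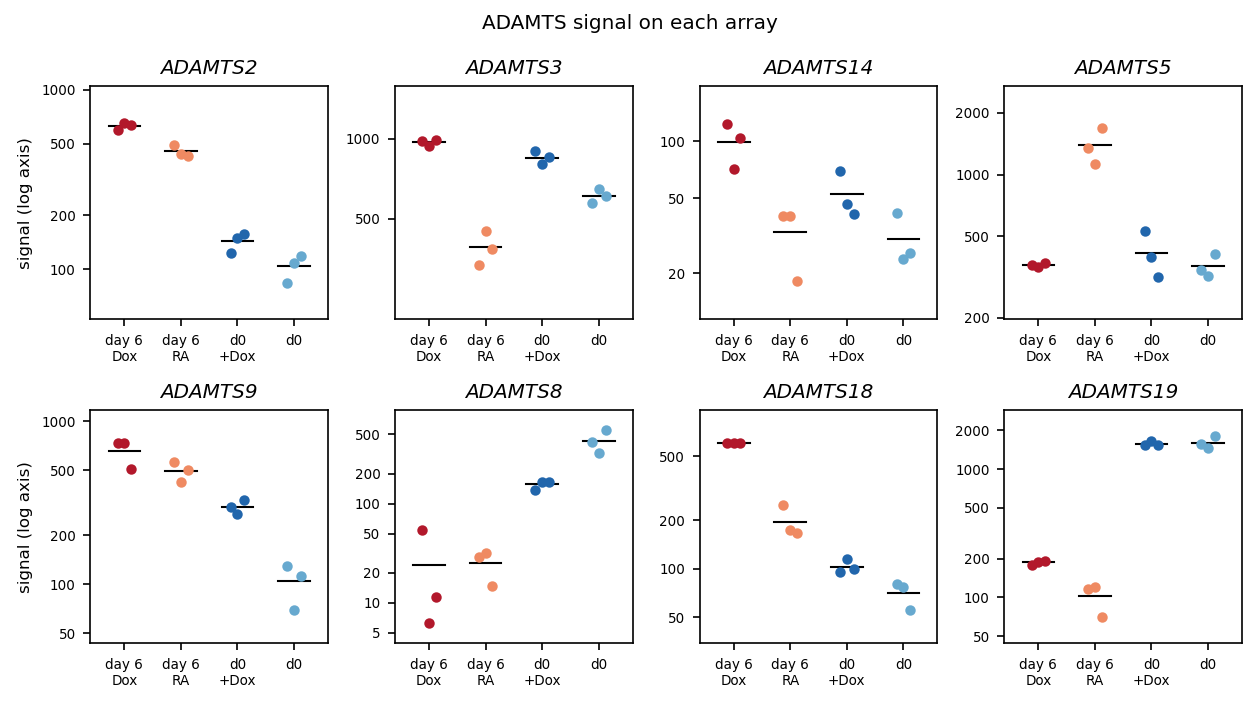
Signal (log axis, array units) of 8 ADAMTS genes on each array, by group, with bars at the group means. ADAMTS2, ADAMTS3 and ADAMTS14 are higher in Dox-labelled than RA-labelled day 6 arrays, ADAMTS5 is high in RA-labelled arrays, and ADAMTS8 and ADAMTS19 are low at day 6.

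Genes that activate, anchor or inhibit these enzymes, or that the enzymes cut, were read beside them. These lists are short, and their counts are to be set against the 46.1% of all genes called in the Dox-labelled arm, 50.5% in the RA-labelled arm, 25.9% between the day 6 groups and 12.9% with Dox at d0. Of 22 measured genes of the plasmin system and other regulators, 15 rose and 4 fell in the Dox-labelled arm and 11 rose and 7 fell in the RA-labelled arm. Their median log2 fold change was 0.76 and 0.42, against −0.03 and −0.01 for all genes. TFPI2, a secreted Kunitz-type inhibitor of plasmin and of some MMPs, averaged 18442 ± 184 in Dox-labelled and 1246 ± 102 in RA-labelled day 6 arrays, a difference of 3.87 ± 0.07 (adjusted p = 1.49e-09). RECK, a membrane-anchored inhibitor of MMP2, MMP9 and MMP14, averaged 1965 ± 239.9 in Dox-labelled and 5368 ± 431 in RA-labelled day 6 arrays, a log2 fold change of −1.45 ± 0.12 (adjusted p = 1.29e-05). Of these 22 genes, 6 rose and 7 fell between the day 6 groups. PLAUR, the receptor that holds urokinase at the cell surface, averaged 1634 ± 51.6 in Dox-labelled and 4019 ± 217 in RA-labelled arrays, a log2 fold change of −1.29 ± 0.08 (adjusted p = 2.63e-06). At d0, 5 rose and 4 fell with Dox, among them TGFB1, which rose by 1.15 ± 0.16 (adjusted p = 0.0013), and PCSK5, a proprotein convertase, which fell by 0.91 (adjusted p = 3.11e-05).

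Of 12 ADAM genes, the membrane-bound relatives, 5 rose and 2 fell in the Dox-labelled arm, and 7 rose and 1 fell in the RA-labelled arm, with medians of 0.17 and 0.58. The 7 of 12 called in the Dox-labelled arm lie near the share of all genes. ADAM33 averaged 424 ± 41.1 in Dox-labelled and 1773 ± 319.9 in RA-labelled day 6 arrays (log2 fold change −2.01 ± 0.14, adjusted p = 4.86e-06). Between those groups 2 ADAM genes rose and 5 fell, and at d0 3 rose and none fell with Dox. Of 8 hyalectans and link proteins, 2 rose and 1 fell between the day 6 groups. HAPLN1, which locks hyalectans onto hyaluronan, averaged 3355 ± 124 in Dox-labelled and 384 ± 88.4 in RA-labelled arrays (3.10 ± 0.16, adjusted p = 8.67e-07). VCAN, the hyalectan versican, averaged 15725 ± 726 in Dox-labelled and 11598 ± 729 in RA-labelled arrays (0.44 ± 0.08, adjusted p = 0.00299). In the Dox-labelled arm 2 of these 8 rose and 3 fell, in the RA-labelled arm 1 rose and 1 fell, and with Dox at d0 2 rose and none fell. Of 7 ADAMTS-like genes, which resemble ADAMTS proteins but lack the catalytic domain, 2 rose and 1 fell between the day 6 groups, 4 rose and 1 fell in the Dox-labelled arm, 2 rose and 3 fell in the RA-labelled arm, and 1 rose at d0. THSD4, which binds fibrillin, averaged 829 ± 76.3 in Dox-labelled and 367 ± 32.4 in RA-labelled arrays (1.14 ± 0.11, adjusted p = 4.88e-05). Of 5 astacin proteinases, BMP1, which removes the other, carboxy-terminal propeptide of procollagens, rose by 3.04 ± 0.16 in the Dox-labelled arm (adjusted p = 1.65e-07) and by 3.98 ± 0.16 in the RA-labelled arm (adjusted p = 1.77e-08), while 1 and 2 fell in those arms, 1 fell between the day 6 groups and 1 fell at d0.

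Markers of other cells also moved with day. Their counts are to be set against the 46.1% of all genes called in the Dox-labelled arm and 50.5% in the RA-labelled arm. Of 12 mesenchyme markers, 10 rose and 1 fell in the Dox-labelled arm and 9 rose and 1 fell in the RA-labelled arm. Their summed signal was 102428 to 105911 in Dox-labelled and 84047 to 96571 in RA-labelled day 6 arrays, against 34494 to 35441 at d0 with Dox and 32694 to 34429.7 without it, with PRRX1 under 50 in all 4 groups. COL1A1 and COL1A2 made up most of the sum, averaging 37199 and 34849.9 in Dox-labelled and 36524 and 34859 in RA-labelled day 6 arrays. Between those groups 4 markers were higher and 3 lower in Dox-labelled arrays, where 25.9% of all genes were called. Among them POSTN averaged 10845 ± 571 in Dox-labelled and 1042 ± 209 in RA-labelled arrays. THY1 was the marker that fell in both arms. Summed signal of 9 endoderm markers was 24859 to 27867 and 18907 to 23001 at day 6, against 8113 to 8677 and 7131 to 8199 at d0, in the same order of groups. Of these 9, 7 rose in the Dox-labelled arm and 5 in the RA-labelled arm, and 0 fell. LAMB1 made up most of the sum, with 15405 ± 529.7 and 16955 ± 724 at day 6, against 7419 ± 285 and 6968 ± 638 at d0. SOX17 and FOXA2 were called in neither arm. Summed signal of 8 trophoblast markers was 11991 to 12595 and 6471 to 7176, against 4261 to 4826 and 3632 to 4577, again in that order. In each arm 3 trophoblast markers rose, 2 fell (TFAP2C and PGF) and 3 were not called, with a median of −0.14 in the Dox-labelled and −0.07 in the RA-labelled arm, and the sum rose mainly with KRT7 and GATA3. Endothelial markers summed to 1643 to 1821 and 2022 to 2169 at day 6, against 2280.4 to 2822 and 2595 to 2657 at d0, and 4 to 7 of these 10 were under 50. That sum fell with KDR, which averaged 364 ± 28.2 and 257 ± 32.7 at day 6, against 1075 ± 109 and 1969 ± 68.9 at d0. Of the 10 endothelial markers, 2 rose and 3 fell in the Dox-labelled arm, and 6 rose and 2 fell in the RA-labelled arm, where TIE1 rose by 3.19 ± 0.28, ESAM by 2.41 ± 0.34 and CDH5 by 1.17 ± 0.36. Leukocyte markers summed to 320.4 at most, and 7 or 8 of 9 measured were under 50 in each group. The ratio of 3′ to 5′ signal of ACTB, a measure of RNA integrity, was 2.33 ± 0.0580 in Dox-labelled and 2.59 ± 0.290 in RA-labelled day 6 arrays, against 3.86 ± 0.0111 at d0 with Dox and 3.24 ± 0.139 without it (SD, n = 3 each). That of GAPDH was 1.46 ± 0.0230 and 1.35 ± 0.0817, against 1.62 ± 0.0554 and 1.53 ± 0.0577, in the same order of groups. The part of these markers and of these ratios in the members' differences was not tested.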

How the data were processed

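Per the labels' protocols, TRIzol-extracted total RNA was biotin-labelled and hybridised, 1 sample to each of 12 arrays. The authors deposited a linear intensity for each probe set. Their background correction, summarisation and scaling steps are not given in the sources used here, and array batches were not tested. The trimmed mean was nearly equal on all arrays, so a value is a gene's signal within its array's total. Of 54675 probe sets, 41097 carried a single gene symbol, 1801 several and 11777 were not listed in the annotation used here. For 41043 the gene ID gave the current symbol in the RefSeq table of GRCh38.p14. For each of 19775 genes the probe set brightest on the log2 scale stood for the gene, and the highest linear mean picked the same one for all 44 members. MMP23A and MMP23B share a probe set and are not members, and ADAMTS7 was not analysed here.

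Groups and replicate numbers came from the sample titles. Differences were tested in R 4.3.3 by limma 3.58.1 on log2(intensity + 16), in a single lmFit of the 4 group means followed by eBayes, with 8 residual degrees of freedom. p-values were adjusted by Benjamini-Hochberg over 19775 genes at a threshold of 0.05. Adding 16 understates the change of dim genes. The comparisons were Dox-labelled against RA-labelled day 6 arrays, d0 with against without Dox, each day 6 group against its d0 group, and the difference of the first 2. The members, the role groups and the marker and pathway lists were chosen with earlier results of these data known. Members given array by array were up to 6 called rises and 6 called falls per comparison with a group mean of at least 50, the TIMPs, MMP2, MMP9 and MMP14. From each pathway list up to 3 called genes each way were named, not always those with the largest changes. Between the day 6 groups, called genes not named above included THBS2 (log2 fold change −1.72), SPOCK3 (1.61), ADAMTSL4 (1.54), TLL2 (−1.27), ADAMTSL2 (−1.13) and HAPLN4 (−0.99). MMP10, ADAMTS2 and ADAMTS15 fall outside this rule and were added after their values were seen. Alternatives were pseudocounts of 1 and 64, centring arrays on their medians, quantile normalization, averaging a gene's probe sets, choosing the highest linear mean, genes at or above the median gene, the 6 arrays of a comparison alone, a trended robust prior, the replicate number as a block and leaving out each array. The number of arrays limits precision, and the scripts were tested on simulated data.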

Additional observations from a re-analysis of the deposited data

Results flagged for a closer look

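In 14 members the change from d0 to day 6 differed between the arms, by limma's test of the difference itself (Dox-labelled change minus RA-labelled change, log2, adjusted over all genes). The same number is the Dox-labelled against RA-labelled difference at day 6 minus the Dox difference at d0. Of all genes, 24.2% were called in this test. Among the gelatinases and membrane-type MMPs the value was 2.30 for MMP9 (adjusted p = 6.16e-07), −1.22 for MMP14 (adjusted p = 3.86e-04) and 0.63 for MMP16 (adjusted p = 0.00378). Among the inhibitors it was 0.63 for TIMP3 (adjusted p = 0.00331) and −1.08 for TIMP4 (adjusted p = 0.00192). Among the hyalectan-cleaving ADAMTS genes it was −2.05 for ADAMTS5 (adjusted p = 4.75e-04), −0.69 for ADAMTS1 (adjusted p = 0.0094), 0.78 for ADAMTS15 (adjusted p = 0.0068) and −1.03 for ADAMTS9 (adjusted p = 0.0302). Of the procollagen-cleaving genes, ADAMTS3 had 0.82 (adjusted p = 0.00252). The other ADAMTS genes were ADAMTS18 with 1.09 (adjusted p = 0.00514), ADAMTS19 with 0.83 (adjusted p = 0.0235), ADAMTS12 with −0.76 (adjusted p = 0.00581) and ADAMTS13 with −0.95 (adjusted p = 7.36e-04 between the day 6 groups and 0.00102 for the difference of differences). MMP9 was called in opposite directions within each day, higher in Dox-labelled than RA-labelled arrays at day 6 and lower with Dox at d0. ADAMTS9 was not called without d0 with Dox replicate 1 or 3, RA-labelled replicate 1 or 3, or Dox-labelled day 6 replicate 3 (adjusted p 0.0583 to 0.0691), and ADAMTS19 without d0 replicate 3 or d0 with Dox replicate 1 or 3 (adjusted p 0.0507 to 0.0534). Averaged over a gene's probe sets, ADAMTS1, ADAMTS9, ADAMTS12, ADAMTS13, ADAMTS15, ADAMTS18 and ADAMTS19 were not called. The signs, sizes and calls all rest on the day 6 labels, since exchanging those would also pair each day 6 group with the other d0 group.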

How the results depend on the processing

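Of 93 called results on single members, 69 kept direction and call under each of 22 alternatives that tested them, 24 were not called under at least 1, and none turned direction. Averaging a gene's probe sets ended 16 calls, the most of any alternative. Counts of members called moved as follows. With Dox at d0, 4 rose as reported, 2 with averaged probe sets, 8 among genes at or above the median gene and 7 with a trended robust prior, and 3 fell as reported against 1 with a pseudocount of 1. Leaving out 1 array at a time gave 3 to 6 higher and 1 to 3 lower there, with 1 lower without d0 replicate 2 or 3 or d0 with Dox replicate 2 or 3. Averaged probe sets left 4 lower between the day 6 groups in place of 7, and 3 lower in place of 7 for the difference of differences. Only 18 members were tested among genes at or above the median gene, which left 11 higher and 6 lower in the RA-labelled arm and 4 lower in the Dox-labelled arm. The uncalled difference of MMP2 at d0 turned to 0.05 with averaged probe sets, and ran from −0.12 to 0.14 when arrays were left out, with 0.01 without d0 replicate 2 and 0.14 without d0 with Dox replicate 2. Where no construction is named, the cause was not tested. Same-numbered arrays deviated from their group means with correlations of −0.02 to 0.16, over 0.1 in 4 of 18 pairs, 3 of them among replicates 3 of RA-labelled, d0 with Dox and d0 arrays. Not every pair was over 0.1, so the numbers were not taken to pair the samples. Same-numbered pairs had a median of 0.05 and others −0.03. Each array was also set against each other group, and in 23 of 36 such cases its best correlate carried its own number. For 3 of 12 arrays this held in all other groups. These counts are a hint from the data and not the design. With the replicate number as a block, the fall of ADAMTS8 with Dox at d0 (−1.35) was not called (adjusted p = 0.0635), no other called result was lost, and 11 in place of 10 members rose between the day 6 groups. Array medians were 0.14 lower in Dox-labelled day 6 arrays than at d0 with Dox (log2 difference −0.14). Depth does not apply to arrays. Between 23.1% and 26.5% of probe sets per array lay under 16, and changes of members near that level, such as MMP1, MMP10, ADAMTS8 and ADAMTS14, were measured least well.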

Other observations

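A probe set shared by MMP23A and MMP23B, a pair of near-identical MMP genes, was outside the family as defined. It averaged 23.3 ± 26.0 in Dox-labelled and 140.1 ± 7.06 in RA-labelled day 6 arrays, against 39.1 ± 4.58 at d0 with Dox and 32.0 ± 3.13 without it (SD, n = 3 each), and was not tested. Of 79 calls on members in the 4 comparisons, 55 were on genes with another probe set. In 27 of these another probe set was called the same way, and in 0 was one called against. Many of the other probe sets were dim, and such counts were not made for all genes. Uncalled results are left out, such as ADAMTS2 at d0, where another probe set was called the opposite way.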
